A study of Mus musculus with 7 samples.

Results

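The Slc25 genes encode the mitochondrial carrier family, and they are described here in mouse embryonic stem cells with and without calreticulin. All probe sets with a single platform symbol of the form Slc25a followed by a number were taken, which gave 93 probe sets of 44 genes among 45101 probe sets and 18194 gene symbols on the array. The choice used names and no measured value. Of the 44 genes, 21 had 1 probe set, 10 had 2, 7 had 3, 2 had 4, 3 had 5, and Slc25a5 had the most with 8. Family members with other symbols, such as Ucp1, Ucp3, Mtch1 and Mtch2, were not counted as Slc25 genes and were read with the other mitochondrial transporters. Also left out was 1 probe set annotated to Slc25a37 together with a second gene.

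RNA from 5 calreticulin knockout and 2 wild type samples of the D3 line, an established mouse embryonic stem cell line, was hybridised to Affymetrix Mouse 430 2.0 arrays. The knockout cells derive from the same line and lack calreticulin, which binds calcium and helps proteins fold in the endoplasmic reticulum. No other allele and no treatment is named in the labels, which also do not say whether 1 clone or several were used. Each sample pooled several cultures and was counted by the submitters as its own biological replicate, called a library below. The design asks how loss of calreticulin changes transcript levels.

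Mitochondrial carriers are small membrane proteins built from a repeated unit of membrane-spanning helices, and most sit in the inner membrane. Each moves a small set of substrates, commonly in exchange for another, between the cytosol and the matrix: ADP and ATP, phosphate, carboxylates, amino acids, cofactors, acylcarnitines or iron. They are made in the cytosol and enter through the outer-membrane receptor Tom70, the small Tim chaperones and the TIM22 complex. Several carriers, such as the aspartate-glutamate and the ATP-Mg/phosphate carriers, have calcium-binding domains that face the intermembrane space.

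The targeted gene was examined first. The Calr probe set with the highest mean signal averaged 912 ± 205 in knockout libraries (SD, n = 5) and 11649.8 ± 1146 in wild type libraries (SD, n = 2), a log2 difference of -3.68 (limma adjusted p = 0.00595). All 7 stem cell markers examined, Pou5f1, Nanog, Sox2, Zfp42, Dppa5a, Tdgf1 and Utf1, had signals of 3055.7 or more in every library, and their summed signal was 67470.2 to 100423 in knockout and 76742 to 85508 in wild type libraries. Among the 7 libraries, knockout libraries 2 and 3 were unlike the remaining 5. They correlated with each other at r = 0.9845 over all tested probe sets and with the rest at 0.843 to 0.902, and a bacterial control RNA (the 3' Lys probe set) read 15165 and 13155 in them against 6749 to 8507.5 elsewhere. Pou5f1 read 4891 and 4687 in knockout libraries 2 and 3, against 8770 to 11726 elsewhere. Nanog read 4841 and 4600.5 in them, against 5456 to 9228 elsewhere. Utf1 was also lowest in these 2 libraries and Tdgf1 highest, and Zfp42, Sox2 and Dppa5a were neither in both. The wild type pair itself correlated at 0.935, below wild type library 2 with knockout library 5 (0.972). Array values are relative within an array, and signals of different probe sets cannot be ranked against each other.

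No Slc25 probe set changed significantly between knockout and wild type cells. Of the 93, 72 probe sets of 40 genes had a mean log2 signal above the filter and were tested, and 0 of 72 passed an adjusted p of 0.05 (limma, adjusted over 27022 probe sets), where 0.0296% of all tested probe sets did (0.0111% higher and 0.0185% lower). The lowest adjusted p among them was 0.575, and over the 20 alternative settings this lowest value ran between 0.152 and 0.949. At an unadjusted p under 0.05 there were 6 of 72, which is 8.33% beside 8.42% of all tested probe sets. Differences are given as knockout minus wild type on the log2(signal + 20.2) scale, which understates changes of dim probe sets. They ran from -0.87 for Slc25a11 to 1.36 for a Slc25a36 probe set, with 37 above 0 and 35 below. The share above 0 was 51.4%, beside 55.9% of all tested probe sets. The median was 0.02, beside 0.07 over all tested probe sets; with quantile normalization these were -0.02 and -0.03, and with each array centred on its median they were -0.09 and -0.05. Within 0.5 of no difference lay 81.9% of the Slc25 probe sets and 69.1% of all tested ones. The median SE of a difference was 0.29, and 2 wild type libraries limit the size of change that can be detected. In bulk RNA, fewer cells of a kind and less RNA per cell cannot be told apart.

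**Figure D1:**
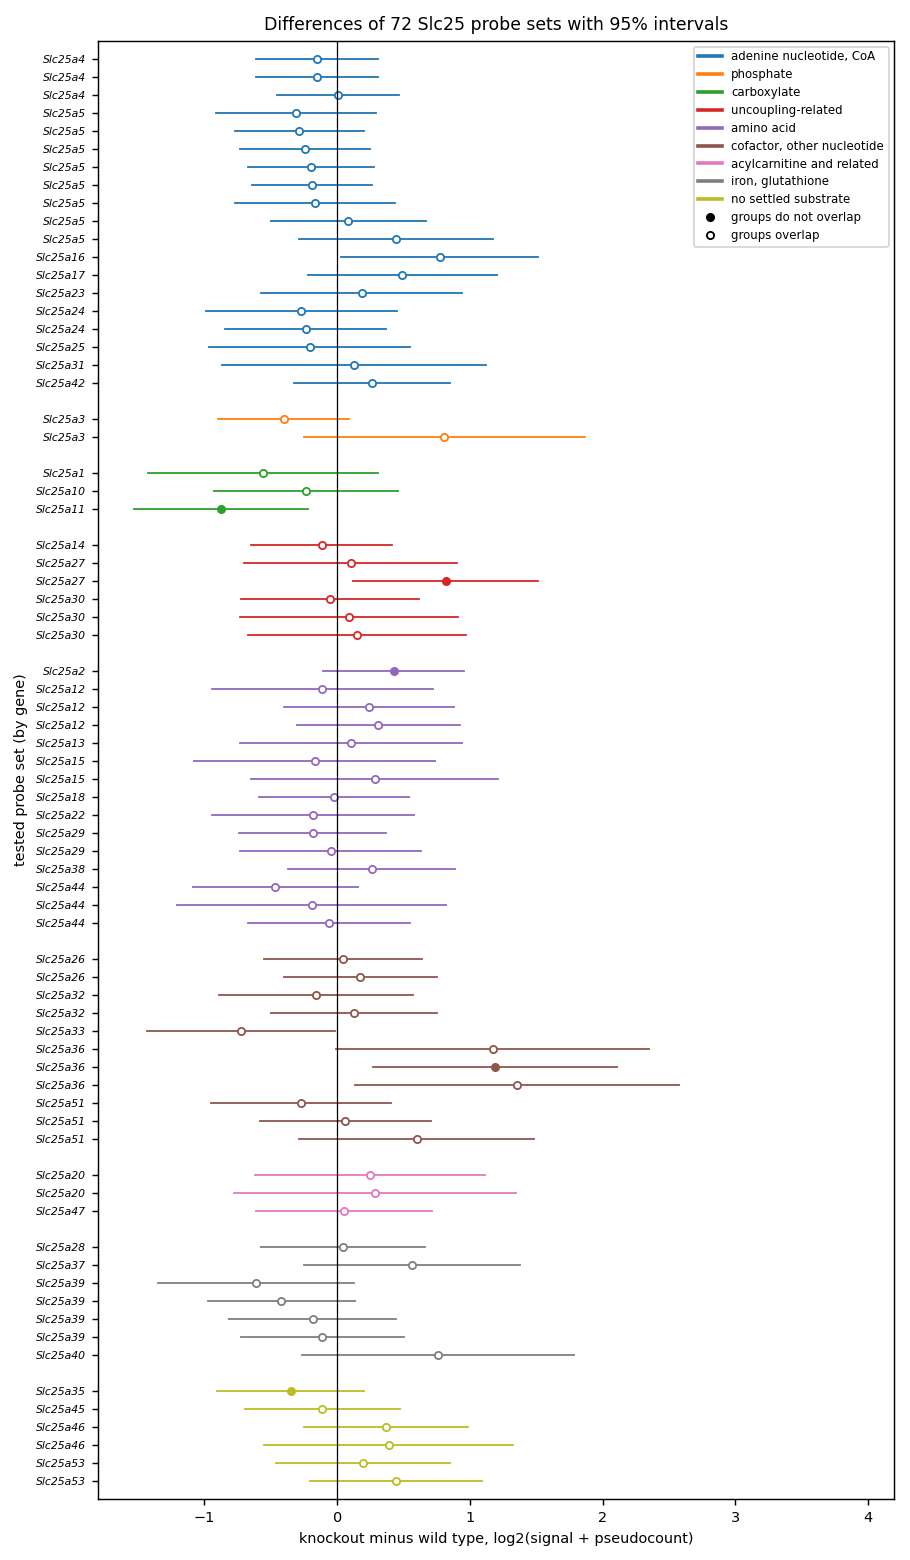
Differences between knockout and wild type libraries (x axis, log2 scale) of the 72 tested Slc25 probe sets (rows, by gene), coloured by the kind of substrate, with 95% intervals from the limma fit. Filled points mark the 5 probe sets whose groups did not overlap; most points lie within 0.5 of 0, and the 3 Slc25a36 probe sets are the only ones beyond 1.

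In 5 of 72 probe sets the 2 groups did not overlap, with every knockout signal above the wild type pair in 3 and below it in 2. That is 6.94% of the Slc25 probe sets, beside 13.6% of all tested probe sets (7.8% higher, 5.85% lower). The 5 belonged to Slc25a36, Slc25a27 and Slc25a2 (higher) and to Slc25a11 and Slc25a35 (lower). Under both rescalings of the arrays the groups of Slc25a11 and Slc25a27 stayed apart, those of Slc25a36 overlapped with arrays centred on their medians, and those of Slc25a2 and Slc25a35 overlapped with either. The count depends on which libraries are included, as does the background. It was 13 without knockout library 1 (20.6% of all tested probe sets), 16 without knockout library 4 (23.1%), 23 without wild type library 1 (32.9%) and 35 without wild type library 2 (50.1%).

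Slc25a36 and Slc25a33 encode carriers of pyrimidine nucleotides, which supply the matrix with precursors for mitochondrial RNA and DNA. The Slc25a36 probe set with the highest mean signal read 5834, 8104, 9147, 6202 and 6025 in knockout libraries 1 to 5, against 1691 and 5455 in wild type libraries 1 and 2. Every knockout signal was above both wild type signals, but wild type library 2 lay close to knockout library 1, and wild type library 1 was far below all the others. The means were 7062 ± 1479 in knockout and 3573 ± 2662 in wild type libraries (SD, n = 5 and 2). The log2 difference was 1.19 (SE 0.41, 95% interval 0.27 to 2.11, limma adjusted p = 0.575). It was 0.35 without wild type library 1 and 2.03 without wild type library 2 (adjusted p = 0.949 and 0.152), and 0.98 without knockout libraries 2 and 3. The other 2 Slc25a36 probe sets differed by 1.36 and 1.17, and in both of these the groups overlapped. Without knockout libraries 2 and 3 they differed by 0.77 and 0.63. In all 3 the signals of knockout libraries 2 and 3 were above those of the other 5 libraries. Slc25a33 pointed the other way, with 888, 1029, 913, 1292 and 884 in knockout libraries against 2258 and 1205.0 in wild type libraries. Here only knockout library 4 was above wild type library 2. Its difference was -0.72 (adjusted p = 0.575) and -0.28 without wild type library 1.

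Promoter sequences were considered for the genes whose groups did not overlap. That of Slc25a2 is not shown, and Slc25a27 and Slc25a35 had no promoter entry. The sequences before the starts of Slc25a36, with the family's largest difference, and Slc25a11, with its lowest, are given. Both are the 250 bases upstream of the annotated start in RefSeq (GRCm38.p6, minus strand, 5′ to 3′), at chr9:97111042-97111291 and chr11:70647040-70647289. Capitals mark matches on either strand to the motifs searched, which were the CCAAT box (letters CCAAT), the ETS factor core (letters CCGGAAG), the E-box (letters CACGTG), the palindromic cAMP response element (letters TGACGTCA) and the NRF-1 palindrome. No marked motifs overlap.
Slc25a36: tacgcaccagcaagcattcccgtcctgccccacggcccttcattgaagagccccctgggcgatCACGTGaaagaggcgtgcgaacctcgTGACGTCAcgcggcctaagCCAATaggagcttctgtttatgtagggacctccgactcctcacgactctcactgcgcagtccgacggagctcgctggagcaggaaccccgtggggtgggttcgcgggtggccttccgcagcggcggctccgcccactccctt
Slc25a11: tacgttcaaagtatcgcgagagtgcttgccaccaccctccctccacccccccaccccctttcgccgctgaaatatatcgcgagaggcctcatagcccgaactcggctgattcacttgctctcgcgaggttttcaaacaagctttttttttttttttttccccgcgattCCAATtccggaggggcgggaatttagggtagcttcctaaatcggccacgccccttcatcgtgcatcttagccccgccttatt
The Slc25a36 window holds an E-box 187, a cAMP response element 161 and a CCAAT box 142 bases before the start, and the Slc25a11 window a CCAAT box 82 bases before it. Promoters were listed for 34 of the 44 genes. The cAMP response element stood in 2 of the 34, Slc25a25 and Slc25a36, and in 1.77% of 27025 genes. The E-box stood in 7 of 34 (20.6%) and in 6.86% of all genes, the ETS core in 6 (17.6%, all genes 7.83%), the CCAAT box in 17 (all genes 37.5%) and the NRF-1 palindrome in 0 (all genes 0.877%). The shares of all genes cover every gene with a listed promoter, without selecting genes on the array or genes similar to the carriers. A gene was counted when any of its listed starts had a match. A match is a description of the letters and not evidence of binding.

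The ADP/ATP carriers exchange matrix ATP for cytosolic ADP, and the phosphate carrier Slc25a3 brings in the phosphate for ATP synthesis. The leading Slc25a5 probe set, for the form common in dividing cells, read 17509, 12837, 12202.5, 15105 and 13326 in knockout libraries 1 to 5, against 17058 and 15139 in wild type libraries. The leading Slc25a4 probe set, for the heart and muscle form, read 9472.5, 8146, 7493.5, 10218 and 8405 in knockout libraries, against 9803 and 9501 in wild type libraries. In both genes the groups overlapped, and the 2 lowest signals belonged to knockout libraries 2 and 3. The differences were -0.19 for Slc25a5 (95% interval -0.64 to 0.26, limma adjusted p = 0.725) and -0.15 for Slc25a4 (-0.61 to 0.31, adjusted p = 0.786), and with quantile normalization they turned to 0.01 and 0.05. The 8 Slc25a5 probe sets differed by -0.31 to 0.45, 6 of them below 0. Most of them carry a suffix that marks possible cross-hybridisation with related sequences, so their signals may be shared with other transcripts. Slc25a31, the germ cell form, ranged over 44.7 to 168 in the knockout, against 59.0 and 122 in the wild type, with a difference of 0.13.

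Slc25a3 read 19686, 12611, 12319, 16136 and 14289 in knockout libraries 1 to 5, against 20173 and 18977 in wild type libraries. Only knockout library 1 reached the wild type range, and knockout libraries 2 and 3 were the lowest. The difference was -0.40 (95% interval -0.90 to 0.09, limma adjusted p = 0.575), and -0.24 without these 2 libraries. A second Slc25a3 probe set, with signals of 67.4 to 309 in knockout and of 95.4 and 102 in wild type libraries, differed by 0.81 with overlapping groups, so the 2 probe sets of the gene point opposite ways.

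Other carriers of adenine nucleotides and of coenzyme A differed by -0.27 to 0.77. The calcium-regulated ATP-Mg/phosphate carriers gave 0.19 for Slc25a23, -0.27 and -0.24 for the 2 Slc25a24 probe sets and -0.21 for the tested Slc25a25 probe set. Without wild type library 1 these were 0.65, -0.34, 0.03 and 0.07, and without wild type library 2 they were -0.28, -0.20, -0.50 and -0.48. The related Slc25a41 was under the filter, at 6.20 to 48.9 in knockout and at 35.1 and 3.90 in wild type libraries. Slc25a16, linked to coenzyme A in the matrix, read 451, 615, 725, 486.5 and 622 in knockout libraries against 227 and 463.5 in wild type libraries. Knockout library 1 lay just under wild type library 2, and wild type library 1 was the lowest of all. Its difference was 0.77 (limma adjusted p = 0.575) and 0.29 without wild type library 1. The peroxisomal carrier Slc25a17 differed by 0.49 and the coenzyme A carrier Slc25a42 by 0.26.

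**Figure D2:**
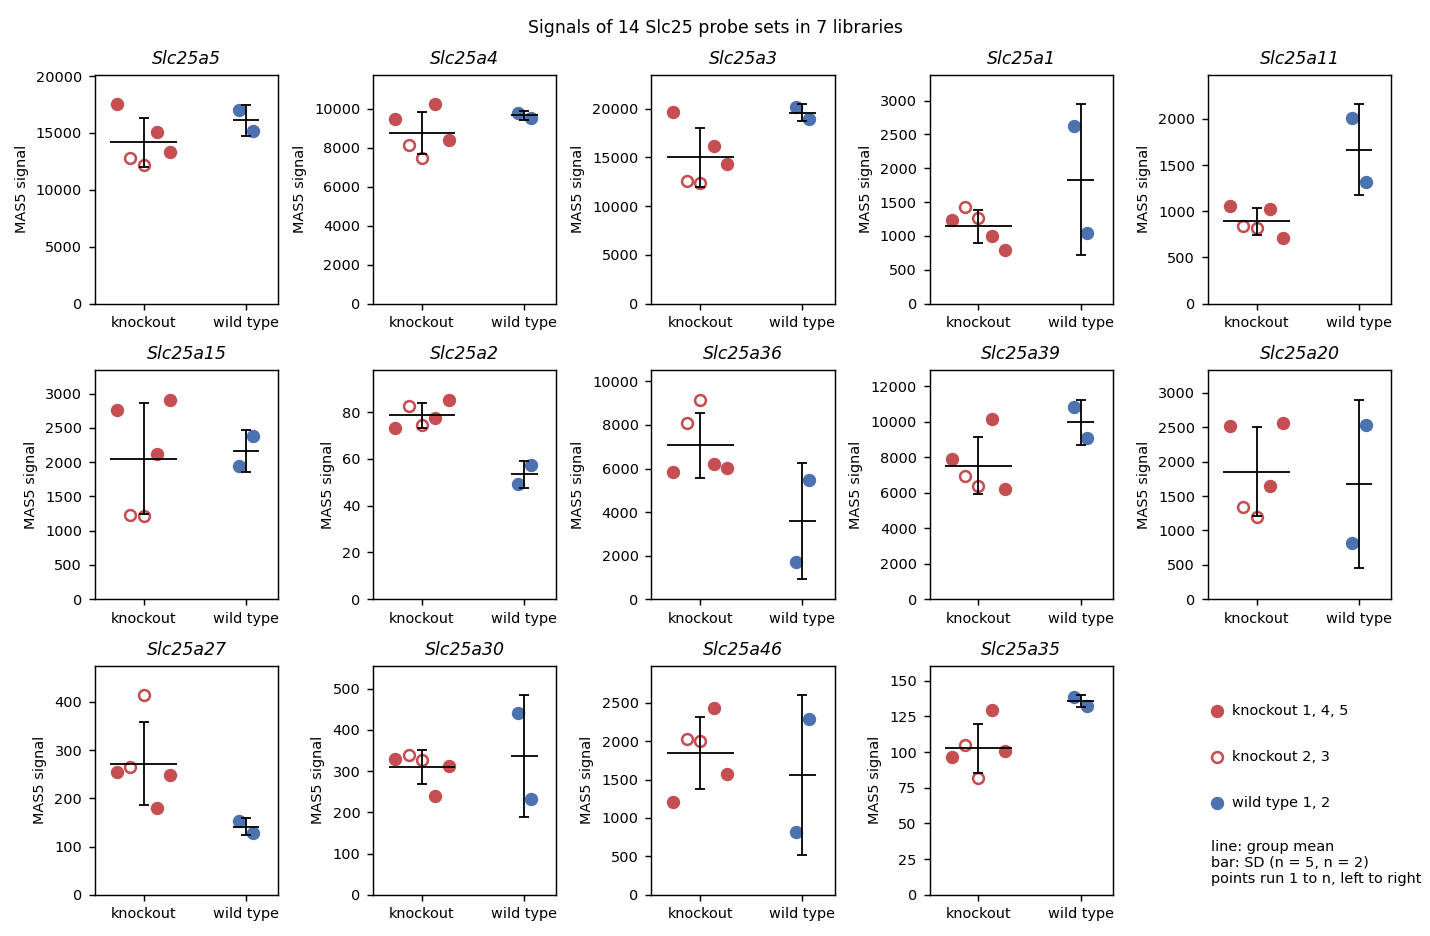
MAS5 signals (y axes, linear from 0, a separate scale in each panel) of 14 Slc25 probe sets in the 5 knockout and 2 wild type libraries; lines are group means and bars are SDs. Knockout libraries 2 and 3 are drawn as open circles. The groups separate in the panels of Slc25a11, Slc25a2, Slc25a36, Slc25a27 and Slc25a35, and in Slc25a20, Slc25a30 and Slc25a46 the wild type pair spans most or all of the knockout range.

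The carboxylate carriers link the citric acid cycle to the cytosol. Slc25a11, the oxoglutarate-malate carrier of the malate-aspartate shuttle, read 1053, 837, 820.4, 1026 and 713 in knockout libraries 1 to 5, against 2013 and 1321 in wild type libraries. All 5 knockout signals were below both wild type signals, and the wild type pair differed from each other by more than the knockout libraries did. The means were 889.7 ± 145 in knockout and 1667 ± 489 in wild type libraries (SD, n = 5 and 2). The difference was -0.87 (SE 0.29, 95% interval -1.53 to -0.22, limma adjusted p = 0.575), and it was -0.82 without knockout libraries 2 and 3 and -0.57 without wild type library 1. The citrate carrier Slc25a1, which exports the carbon for fatty acid and sterol synthesis, read 1234, 1421, 1263, 995 and 797 in knockout libraries against 2618 and 1049 in wild type libraries. Only wild type library 1 was high. Its difference of -0.56 (adjusted p = 0.609) became 0.09 without that library. The dicarboxylate carrier Slc25a10 differed by -0.24 with its tested probe set. All 3 tested carboxylate probe sets had a difference below 0, none of them significant, and without wild type library 1 only that of Slc25a11 was below 0.

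The amino acid carriers gave 15 tested probe sets of 9 genes, 6 of them above 0, with a median of -0.05 and a range of -0.47 to 0.43. The calcium-regulated aspartate-glutamate carriers Slc25a12 and Slc25a13 differed by -0.11 and 0.10 with their leading probe sets. These were -0.51 and -0.11 without wild type library 1, and 0.28 and 0.32 without wild type library 2. Slc25a15, the ornithine carrier, read 2763, 1226, 1214, 2123 and 2906.5 in knockout libraries against 1943 and 2378 in wild type libraries. Knockout libraries 2 and 3 were below and knockout libraries 1 and 5 above both wild type libraries. The difference was -0.17 (limma adjusted p = 0.883), and 0.26 without knockout libraries 2 and 3. Slc25a2, a second ornithine carrier, read 73.0, 82.6, 74.6, 77.6 and 85.2 in the knockout, against 49.2 and 57.5 in the wild type. The groups did not overlap, at signals below every array's median, and the difference of 0.43 did not pass (adjusted p = 0.575). The glutamate carriers Slc25a18 and Slc25a22 differed by -0.02 and -0.18, the glycine carrier Slc25a38, needed for haem synthesis, by 0.26, the basic amino acid carrier Slc25a29 by -0.18 and -0.05, and Slc25a44, a carrier of branched-chain amino acids, by -0.47 to -0.06. Over the calcium-regulated carriers Slc25a12, Slc25a13, Slc25a23, Slc25a24 and Slc25a25, 0 of 8 tested probe sets passed, 4 were above 0, and the range was -0.27 to 0.31.

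Among the cofactor carriers, those for S-adenosylmethionine (Slc25a26), folate (Slc25a32) and NAD (Slc25a51) had 7 tested probe sets with differences of -0.27 to 0.60, all with overlapping groups. The acylcarnitine carrier Slc25a20, which passes fatty acids into the matrix, read 2523, 1344, 1196, 1640.1 and 2558 in knockout libraries 1 to 5, against 816 and 2541 in wild type libraries. The wild type pair spanned nearly the whole knockout range, and the difference of 0.29 (limma adjusted p = 0.824) was -0.52 without wild type library 1 and 1.09 without wild type library 2. Slc25a47, a carrier known from liver, differed by 0.05, and all 3 probe sets of Slc25a48 were under the filter.

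The iron and glutathione carriers serve iron-sulphur and haem synthesis and the redox balance of the matrix. Slc25a39, a glutathione carrier, read 7885, 6960.2, 6374, 10170.2 and 6228 in knockout libraries 1 to 5, against 10855 and 9064.5 in wild type libraries. Only knockout library 4 reached the wild type range. The difference was -0.42 (95% interval -0.98 to 0.13, limma adjusted p = 0.581), and the 4 tested Slc25a39 probe sets all lay below 0, at -0.61 to -0.11, but without wild type library 1 they ran between -0.29 and 0.16, with 2 above 0. Its relative Slc25a40 read 1780, 2880.4, 2866, 1650.5 and 1457 in knockout libraries, against 680.5 and 2097 in wild type libraries. Knockout libraries 2 and 3 were the highest and wild type library 1 the lowest, and the difference was 0.76 (adjusted p = 0.586) or -0.04 without wild type library 1. The mitoferrins, which bring iron into the matrix, differed by 0.57 for Slc25a37 and 0.04 for Slc25a28. Slc25a37 read 154.5, 333, 386, 230.1 and 172.5 in the knockout, against 160.2 and 152 in the wild type. The highest signals were those of knockout libraries 2 and 3.

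The carriers related to the uncoupling proteins gave 6 tested probe sets. Slc25a27, known mainly from brain, read 255, 264, 413, 180.3 and 247 in knockout libraries 1 to 5, against 153 and 129 in wild type libraries. The groups did not overlap with this probe set. The difference was 0.82 (SE 0.31, 95% interval 0.12 to 1.52, limma adjusted p = 0.575), 0.61 without knockout libraries 2 and 3 and 0.93 without wild type library 1. The other tested Slc25a27 probe set differed by 0.10 with overlapping groups, and 2 more were under the filter. Slc25a30 read 330.2, 339, 328, 239.7 and 313 in knockout libraries, against 440.3 and 231 in wild type libraries, so the wild type pair enclosed every knockout signal, with a difference of -0.05 (adjusted p = 0.955). Its other 2 tested probe sets gave 0.09 and 0.15, and Slc25a14 gave -0.12.

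Carriers whose substrate is not settled gave 6 tested probe sets. Slc25a46, which lies in the outer membrane and acts in mitochondrial fusion and fission, read 1213, 2025, 2000.5, 2434 and 1574.5 in knockout libraries, against 818 and 2290.0 in wild type libraries. The lowest library was wild type library 1, and the difference of 0.39 (limma adjusted p = 0.732) was -0.34 without it. Slc25a35 read 96.7, 105, 81.9, 129 and 101 in the knockout, against 138 and 132.5 in the wild type. The groups did not overlap, by a margin of a few signal units, and the difference of -0.35 did not pass (adjusted p = 0.617). Slc25a45 gave -0.11 and the X-linked Slc25a53 gave 0.20 and 0.45.

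In all, 21 probe sets were under the filter. The 4 genes Slc25a34, Slc25a41, Slc25a48 and Slc25a54 had no tested probe set, and the highest signal of any of the 21 in any library was 125. Without detection calls these low signals cannot be told from background. Of 18 genes with over 1 tested probe set, 10 had differences of the same sign throughout and 8 of mixed sign. The 3 Slc25a36 probe sets were within 0.18 of each other, and the 2 Slc25a3 probe sets were 1.21 apart.

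**Figure D3:**
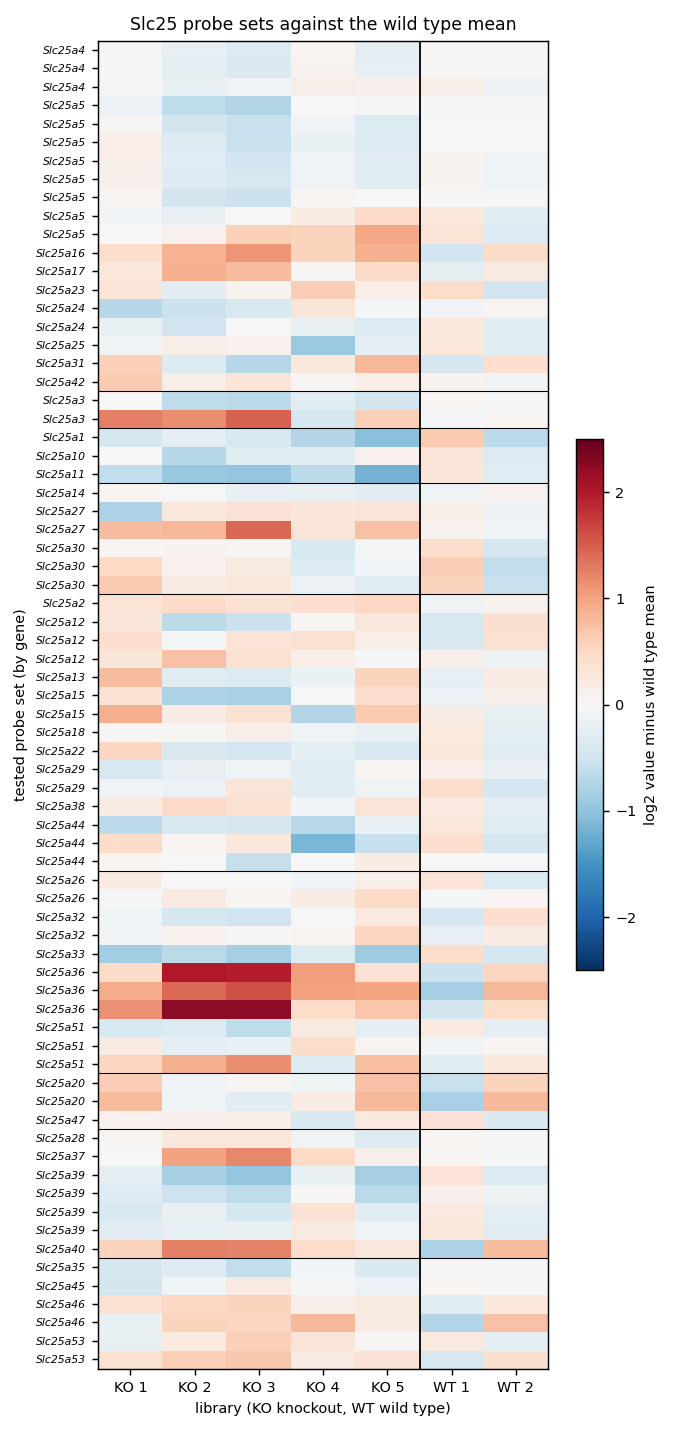
Log2 value of each tested Slc25 probe set (72 rows, by gene, in the order of the kinds of substrate) in each library (columns), minus its wild type mean; red is higher and blue is lower than that mean. Knockout libraries 2 and 3 resemble each other, with the darkest red at Slc25a36, and wild type library 1 differs from wild type library 2 at Slc25a36, Slc25a40, Slc25a20 and Slc25a1.

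The libraries differed among themselves at many carriers. Knockout libraries 2 and 3 both lay above the other 5 libraries at 13 of 72 Slc25 probe sets and both below at 13, together 36.1%, beside 47.9% of all tested probe sets. With quantile normalization the numbers were 10 above and 13 below. Above were Slc25a36 (3 probe sets), Slc25a12, Slc25a17, Slc25a27, Slc25a28, Slc25a37, Slc25a38, Slc25a40, Slc25a46, Slc25a51 and Slc25a53. Below were Slc25a5 (5 probe sets), Slc25a3, Slc25a4, Slc25a12, Slc25a13, Slc25a15, Slc25a32, Slc25a39 and Slc25a51. Slc25a12 and Slc25a51 stand in both lists with different probe sets. All 10 fibroblast markers examined gave a signal above 20.2 in some library, and their summed signal was 1582, 6649, 6308, 2854 and 1540.0 in the knockout libraries in order, against 5279 and 4607 in the wild type. The highest sums were those of knockout libraries 2 and 3, but Thy1, Col1a1, Lum and Acta2 were not highest in both of them. Acta2, a smooth muscle actin gene, made up most of the wild type sums, and without it the sums were 595.7, 4175, 3964, 961 and 645 in the knockout libraries, against 1477 and 1539.5 in the wild type. Summed signals of 5 primitive endoderm markers were 773.5 to 1718 in knockout and 1418 to 2281 in wild type libraries, and those of 4 muscle markers 402 to 810 and 484 to 1078. The part of such cells, and of whatever sets knockout libraries 2 and 3 apart, in the carrier signals was not tested.

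Wild type library 1 was the highest or lowest of the 7 libraries at 47.2% of the Slc25 probe sets, 19 highest and 15 lowest, beside 46.4% of all tested probe sets. For wild type library 2 the share was 26.4%, beside 22.9% of all tested probe sets. Knockout library 3 had 43.1%, beside 38.8%, and knockout library 2 had 15.3%, beside 29.0%. The other knockout libraries had 22.2% to 23.6%, beside 18.7% to 22.5%. The median Slc25 deviation from the wild type mean was 0.05, -0.10, 0.01, 0.01 and 0.10 in knockout libraries 1 to 5. Over all tested probe sets the medians were 0.08, 0.07, 0.14, -0.00 and 0.07, so the Slc25 median was below that of all probe sets in knockout libraries 1, 2 and 3 and above it in 4 and 5. The wild type libraries mirror each other by construction, at 0.05 and -0.05.

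**Figure D4:**
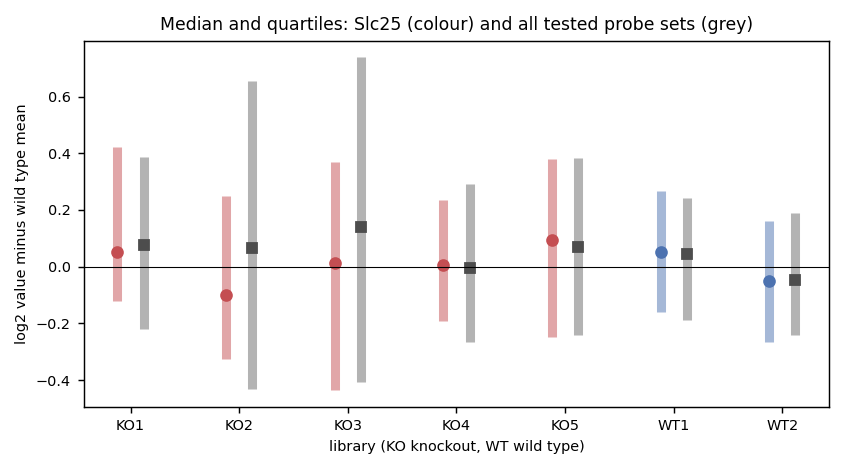
Median (points) and quartiles (bars) of the log2 deviation from the wild type mean in each library (x axis), for the 72 Slc25 probe sets in colour and all 27022 tested probe sets in grey. The Slc25 medians lie between -0.10 and 0.10, and in knockout libraries 2 and 3 the grey bars are the longest.

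Leaving libraries out showed which differences rest on them. Without knockout libraries 2 and 3, 0 of 72 Slc25 probe sets passed (5 of 27022 over all tested probe sets), and the lowest limma adjusted p was 0.820. Groups that are apart stay apart when libraries are left out, so those of Slc25a36, Slc25a27, Slc25a2, Slc25a11 and Slc25a35 were bound to do so. Those of 2 further probe sets separated, which made the share 9.72%, beside 20.3% of all tested probe sets. The median absolute move of a difference was 0.13 without knockout libraries 2 and 3, and 0.25 with either wild type library left out. The sign of the difference turned at 8 of the 72 without knockout libraries 2 and 3, at 20 without wild type library 1 and at 12 without wild type library 2.

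**Figure D5:**
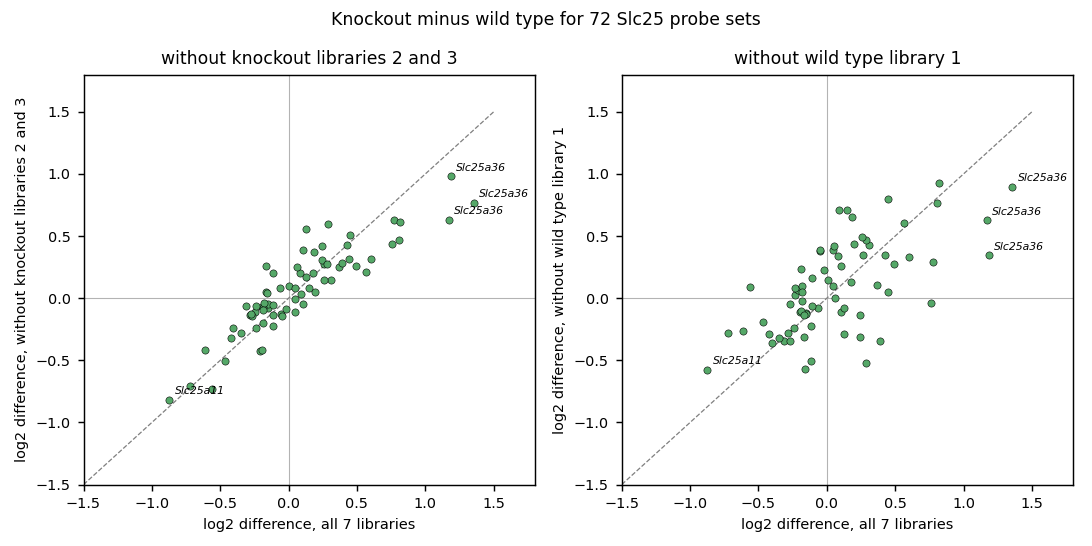
Log2 difference of each of the 72 tested Slc25 probe sets without knockout libraries 2 and 3 (left, y axis) and without wild type library 1 (right, y axis) against the difference with all 7 libraries (x axes); the dashed line marks equal values. The median distance moved is 0.13 on the left and 0.25 on the right. On the left the points farthest from the line include Slc25a15, Slc25a31 and 2 of the Slc25a36 probe sets (0.77 and 0.63), and on the right the Slc25a36 probe sets lie below it, at 0.35 to 0.90.

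Genes that work beside the carriers were read in the same fit. Of 33 tested probe sets for the import route (Tom receptors, small Tim chaperones and the TIM22 complex), 0 passed, 9 were above 0 and the median was -0.16. In 4 of them (12.1%) the groups did not overlap, beside 13.6% of all tested probe sets. The import receptor gene Tomm20 averaged 19515 ± 3331 in knockout and 20558 ± 75.7 in wild type libraries (difference -0.09, limma adjusted p = 0.868), and Tomm7 differed by -0.16. Of 35 probe sets for other mitochondrial membrane transporters, 0 passed, 20 were above 0 and the median was 0.14. The groups did not overlap in 3 that were higher and 4 that were lower (20%, beside 13.6% of all tested probe sets). This list includes Ucp3, Mtch1 and Mtch2, which belong to the carrier family under other symbols. Vdac1, encoding the main outer-membrane pore, read 15821, 7797, 6416, 13160.0 and 8694 in knockout libraries against 18241 and 15924 in wild type libraries. All 5 knockout signals were lower, knockout libraries 2 and 3 the most, and the difference of -0.80 (adjusted p = 0.575) was -0.48 without them. Vdac2 differed by -0.46.

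Of 59 probe sets for enzymes that make or use the carried substrates, 0 passed, with 4 higher and 9 lower without overlap (22.0%, beside 13.6% of all tested probe sets) and a median of -0.03. The matrix malate dehydrogenase gene Mdh2 differed by -0.53 (limma adjusted p = 0.579) and the aspartate aminotransferase gene Got2 by -0.35 (adjusted p = 0.699). Of 21 probe sets for regulators of mitochondrial biogenesis, 0 passed, 3 had groups that did not overlap (14.3%) and the median was -0.04, with Pprc1 at -0.57 and Tfam, the mitochondrial DNA-packaging factor, at -0.03. Over these 4 lists together, 148 probe sets were tested, and 27 had groups that did not overlap (18.2%, beside 13.6% of all tested probe sets), 10 higher (6.76%, beside 7.8%) and 17 lower (11.5%, beside 5.85%) in knockout libraries. The split was 10 and 12 with quantile normalization and 7 and 24 with arrays centred on their medians. It was 17 higher and 20 lower without knockout libraries 2 and 3. Without wild type library 1 it was 30 and 26, and without wild type library 2 it was 27 and 47. Over all tested probe sets the shares without overlap, in either direction, were 13.7%, 13.8%, 20.3%, 32.9% and 50.1% in that order. The lower share of these lists therefore depends on which libraries are included.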

How the data were processed

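Total RNA of 5 calreticulin knockout and 2 wild type samples was measured on 1 array each. The deposited values are MAS5 signal intensities on a linear scale, per the submitters' processing notes, which name no version. In the deposited intensities the trimmed mean of every array was 500.0 and the array medians ran from 92.6 to 124.9. No background correction or normalization was added. Signals were taken as log2(signal + 20.2), a pseudocount set at the 20th percentile of signals, and probe sets with a mean at or below the 40th percentile were left out, which kept 27022 of 45037 after 64 control probe sets were removed. Knockout minus wild type was tested with limma 3.58.1 in R 4.3.3 (empirical Bayes with a trend) and Benjamini-Hochberg adjustment over all tested probe sets, with 0.05 as the threshold. The script was tested on simulated data. The number of arrays limits the precision, and MAS5 signals carry no read depth.

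Gene names come from the platform annotation, which gave 34958 probe sets 1 symbol, 932 several and 9211 none; all 93 Slc25 probe sets matched a RefSeq gene. A leading probe set is the one with the highest mean signal of its gene. By the naming rule, values in every library are given for the 6 Slc25 genes with the highest mean signal, for the brightest of each kind of substrate and for probe sets whose groups did not overlap (up to 8 each way), 14 in all; from each other list up to 2 of the brightest genes are named, and Calr always. Library values of Slc25a16, Slc25a33, Slc25a37 and Slc25a40 and of further Slc25a3, Slc25a31 and Slc25a41 probe sets were picked with their values in view. The members, the gene lists and the naming rule were chosen with earlier results of these data known. Promoter windows are from RefSeq (GRCm38.p6).

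Alternatives were other scalings, filters, pseudocounts, variance models, array weights, a replicate block, knockout libraries 2 and 3 left out or as a batch term, 1 probe set per gene, no cross-hybridising probe sets and each library left out. Replicate numbers 1 and 2 occur in both groups. The labels do not say that they mark a shared culture, so the numbers were not taken to pair the samples. Deviations of same-numbered libraries correlated at 0.109 and -0.00979. The deviations of the wild type libraries mirror each other by construction, so these correlations cannot decide whether the samples were paired.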

Additional observations from a re-analysis of the deposited data

Results flagged for a closer look

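The leading Slc25a30 probe set had 1 knockout library far from the other 4. Knockout library 4 read 239.7, and knockout libraries 1, 2, 3 and 5 read 330.2, 339.3, 328.1 and 312.9, so that the gap was 0.735 of the range, over Dixon's 95% critical value for 5 samples. The wild type libraries read 440.3 and 231.4. Chance flags about 1 in 20 groups, and 14 probe sets were examined.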

How the results depend on the processing

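No Slc25 probe set and none of the related mitochondrial genes passed the adjusted threshold in limma under any of the 20 alternatives; the lowest adjusted p of a Slc25 probe set was 0.152, without wild type library 2. The median Slc25 difference, 0.02, was -0.0938 with arrays centred on their medians, -0.0633 with the filter at the 60th percentile and -0.15 to 0.0588 with 1 library left out. The number of Slc25 probe sets whose groups did not overlap, 5, was 3 with the filter at the 60th percentile (14.7% of all tested probe sets). It was 5 to 35 with 1 library left out (14.5% to 50.1% of all tested probe sets). Leaving out a library can only keep or raise this count. With the replicate block 0 Slc25 probe sets passed, the median stayed at 0.02 and the lowest limma adjusted p was 0.267. The block sets knockout libraries 1 and 2 against the same-numbered wild type libraries, so knockout libraries 3, 4 and 5 do not enter the difference. Whether groups overlap does not depend on the block. Of 250 differences of the 14 probe sets recomputed, 239 kept their sign and 11 reversed. Slc25a15 was 0.0865 with array weights, 0.26 without knockout libraries 2 and 3 and 0.26 with these as a batch term. Slc25a30 was 0.0603 with the replicate block, and with quantile normalization Slc25a4 was 0.0472 and Slc25a5 0.0125. With 1 library left out Slc25a1 ran between -1.21 and 0.0921, Slc25a20 between -0.52 and 1.09, Slc25a30 between -0.49 and 0.38 and Slc25a46 between -0.34 and 1.12. The cause of these changes was not tested. Over all probe sets the count past the threshold, 8, was 0 without either wild type library, 15 with the replicate block and 4 with the filter at the 60th percentile. With 1 wild type library the lone sample is assumed to vary like the knockout group.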
